A study of Homo sapiens with 8 samples.

Results

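Protein tyrosine phosphatases and dual-specificity phosphatases were followed across 8 HG-Focus arrays of ZR75-1 and SKBR3 breast cancer cells that had received a plasmid with HSD17B14 or the same vector without it. The members were all probe sets with exactly 1 gene symbol that begins with PTPR and a letter, or with PTPN, PTP4A or DUSP and a digit. This gave 51 of 8793 probe sets and 49 of 7714 named genes. They comprised 17 probe sets of receptor-type phosphatases, 16 of non-receptor phosphatases (14 genes), 3 of the PTP4A family, 8 of the DUSP enzymes known as MAP kinase phosphatases and 6 of other, atypical DUSP enzymes. The last probe set, for PTPRCAP, fits the naming rule although its product is a protein associated with the leukocyte phosphatase CD45 and is not itself a phosphatase. A probe set was tested when it exceeded the 40th percentile of its array on at least 2 arrays, which 40 of the 51 members (39 genes) did.

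HSD17B14 encodes a hydroxysteroid dehydrogenase, an enzyme that oxidises steroid hormones such as oestradiol. ZR75-1 is an established line described by its labels as ER + (positive for the oestrogen receptor), and SKBR3 is an established line described as ER -. Each line had 2 arrays of cells with the HSD17B14 plasmid and 2 arrays of vector controls. All 4 groups were grown with 4% serum in medium free of phenol red, transfected transiently with FuGene-6 and harvested 48 h later. Expression from a transient transfection differs from cell to cell, and each array averages all cells of a culture. The sources do not say whether the duplicates were separate cultures, so p-values measure the spread between arrays alone. In such bulk RNA, fewer cells of a type and less RNA per cell cannot be told apart.

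Tyrosine phosphatases remove phosphate from tyrosine and so oppose tyrosine kinases. The receptor-type enzymes span the membrane, and several of them sit at cell contacts beside cadherins. The dual-specificity enzymes also remove phosphate from serine and threonine. Their best known branch inactivates the MAP kinases ERK, p38 and JNK, and several of its genes are switched on by the same kinases they silence. In breast epithelium these enzymes act on the signals of growth factor receptors such as EGFR and ERBB2.

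HSD17B14 itself read 107.5 and 135.3 on the ZR75-1 plasmid arrays against 17.8 and 2.1 on the ZR75-1 vector arrays. In SKBR3 it read 650.7 and 743.6 against 2 and 4.2. The ERBB2 signal ran from 25.9 to 46.8 on the SKBR3 arrays and from 95.9 to 226 on the ZR75-1 arrays. SKBR3 is widely known for its amplified ERBB2 gene, so the cells are called SKBR3-labelled here. Of the other luminal and HER2 markers, ESR1 read 14.9 to 24.6 on the SKBR3-labelled arrays and 194.5 to 341.6 on the ZR75-1 arrays. FOXA1 read 8.9 to 33.4 against 74.2 to 122.5, and GATA3 284 to 416.4 against 1220.8 to 1638.8. TFF1 read 962.4 to 1073.3 against 1874.1 to 2767.7, GRB7 4.1 to 14.9 against 8.9 to 67.7, and PGR 0.4 to 2.5 against 2.6 to 22.8. The identity of the line was not tested. All 6 epithelial markers lay above a signal of 17.6 on all 8 arrays, with summed signals of 15451.6 to 18443.6 in ZR75-1 and 4308.2 to 5943.7 in SKBR3-labelled cells. That value of 17.6 is the highest of the arrays' 40th percentiles (12.1 to 17.6) and served as a common floor. Of 11 leukocyte markers 5 lay under it on every array, as did 4 of 7 endothelial and fibroblast markers. Of the others, LCP1 lay above it on all 8 arrays (36.1 to 67.1), CD53 on 6 and LAPTM5 on 5. COL1A1 lay above it on the 4 ZR75-1 arrays (21.8 to 50.4), and the rest exceeded it on 1 or 2 arrays. The actin 3'/5' ratio, a sign of RNA quality, lay between 2.02 and 2.83 on ZR75-1 arrays and between 2.28 and 3.60 on SKBR3-labelled arrays.

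The sequences just upstream of 5 phosphatase genes that were called between the lines (limma adjusted p under 0.05) are shown first. The windows of 4 of them hold the regulatory letters searched for, and that of DUSP6 does not. RefSeq promoter windows (GRCh38.p14) were at hand for 41 of the 49 genes, in 66 windows of 250 bases before a transcription start. The cyclic AMP response element TGACGTCA, which is the same on both strands and is bound by CREB and ATF proteins, occurred in 4 of the 66 windows (6.06%) and in 1.65% of 35093 windows of that length over all genes. The 4 genes were DUSP1, DUSP8, PTPRS and PTPRU. Their windows and that of DUSP6, which holds no such letters, read as follows from 5′ to 3′ on the gene's own strand, with the element in capitals.
DUSP1: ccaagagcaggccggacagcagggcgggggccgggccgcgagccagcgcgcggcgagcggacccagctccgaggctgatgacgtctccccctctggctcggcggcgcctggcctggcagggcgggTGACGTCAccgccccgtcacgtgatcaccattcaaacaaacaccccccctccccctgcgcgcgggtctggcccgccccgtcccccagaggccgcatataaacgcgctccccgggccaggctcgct
DUSP8: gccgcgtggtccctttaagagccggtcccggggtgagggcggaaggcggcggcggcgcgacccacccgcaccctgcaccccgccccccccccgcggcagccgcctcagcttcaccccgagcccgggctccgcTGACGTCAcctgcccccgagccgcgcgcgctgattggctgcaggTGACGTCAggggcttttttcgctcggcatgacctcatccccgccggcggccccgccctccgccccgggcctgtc
PTPRS: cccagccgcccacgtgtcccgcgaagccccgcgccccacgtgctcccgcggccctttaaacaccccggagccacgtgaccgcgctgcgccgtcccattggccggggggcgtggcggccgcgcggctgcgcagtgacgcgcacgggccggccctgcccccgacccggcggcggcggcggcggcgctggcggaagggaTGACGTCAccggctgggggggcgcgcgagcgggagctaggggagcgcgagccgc
PTPRU: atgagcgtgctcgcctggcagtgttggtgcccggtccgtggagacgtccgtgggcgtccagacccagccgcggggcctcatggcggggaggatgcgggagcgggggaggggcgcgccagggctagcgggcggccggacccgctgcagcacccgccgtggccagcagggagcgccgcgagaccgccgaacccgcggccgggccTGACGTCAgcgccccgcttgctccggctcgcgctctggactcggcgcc
DUSP6: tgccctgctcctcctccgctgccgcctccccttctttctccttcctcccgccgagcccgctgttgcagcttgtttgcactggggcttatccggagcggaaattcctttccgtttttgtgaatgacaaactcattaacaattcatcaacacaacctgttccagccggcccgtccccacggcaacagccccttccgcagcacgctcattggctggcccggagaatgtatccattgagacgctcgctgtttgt
The DUSP1 window is chr5:172771196-172771445 on the minus strand. The DUSP8 window is chr11:1572272-1572521 on the minus strand and holds the element at 2 places. The PTPRS window is chr19:5340813-5341062 on the minus strand. The PTPRU window is chr1:29236272-29236521 on the plus strand. The DUSP6 window is chr12:89352502-89352751 on the minus strand. Of the 4 genes with the element, DUSP1 and PTPRS had lower signals in ZR75-1 and DUSP8 and PTPRU had higher ones. For PTPRS the log2 difference came to only -0.21 with signals raised to the floor. A match of letters is a description of the window and was not tested as a binding site. The AP-1 site TGANTCA, the same on both strands, was found in 1 member window (1.52%, against 6.57% of all windows), that of PTPN9. The TATA box letters TATAAA, on the gene's strand or its complement, were found in 8 member windows (12.1%, against 10.7%), including those of DUSP1, PTP4A1 and PTPRM.

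The first comparison asked how the phosphatases differ between the 2 lines, averaged over both plasmids with 4 arrays a line. Log2 differences are given as ZR75-1 minus SKBR3-labelled, with limma's standard error, and members were called at an adjusted p (Benjamini-Hochberg) under 0.05. Of the 40 tested members, 5 were higher and 15 lower in ZR75-1. These include DUSP6, PTPRG, PTPRS and DUSP2, which exceeded their arrays' 40th percentiles only in the line where they read higher. That line alone admitted them to the test, so their calls are weaker as evidence of a difference. Over all 6251 probe sets 49.2% were called, 23% as higher and 26.1% as lower, so the share of members called (50%) is near the background. The median difference of the members was -0.37 and that of all tested probe sets was -0.04. With signals raised to the floor these medians were -0.15 and 0.00. The arrays of the 2 lines did not overlap for 5 higher and 13 lower members, against 19.8% and 22.7% of all probe sets. Without the first SKBR3-labelled HSD17B14 array the count of called members was 13, beside 40.6% of all probe sets. When the 3'/5' ratio of actin entered the fit it was 10, beside 28.0%, so in both settings the share of all probe sets called fell as well. The part of RNA quality in the line differences was not tested further.

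**Figure D1:**
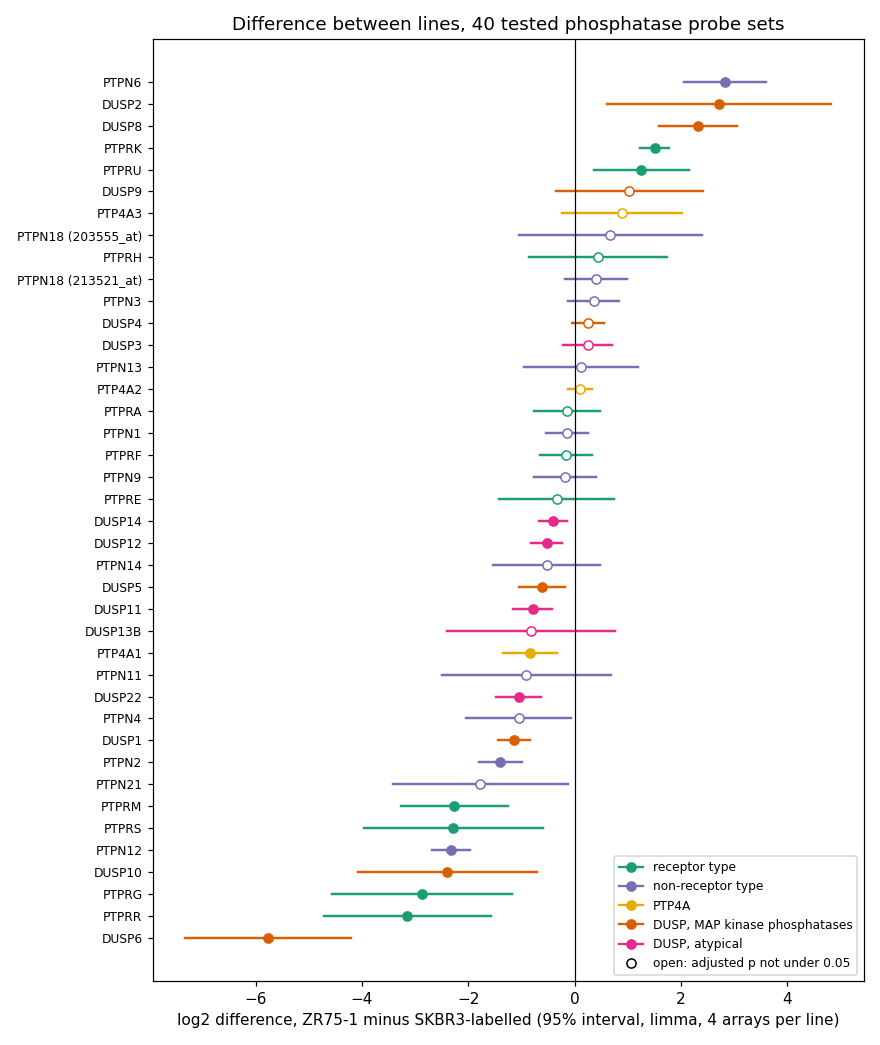
Log2 difference between the lines (ZR75-1 minus SKBR3-labelled) for the 40 tested members, averaged over plasmids with 4 arrays a line; points are limma estimates and bars 95% intervals that are not adjusted for the number of members. Of the 40, 15 lie lower and 5 higher in ZR75-1 at an adjusted p under 0.05. DUSP6, drawn at -5.77, has all ZR75-1 arrays under the common floor, so its position there is fitted to values that the floor bounds. Among the called members this also holds for PTPRG and PTPRS, and on the SKBR3-labelled side for DUSP8 and DUSP2.

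Among the 8 MAP kinase phosphatases, 2 were higher and 4 lower in ZR75-1, beside 23% and 26.1% of all probe sets. DUSP6 (208892_s_at), a cytoplasmic phosphatase of ERK, read 1.1 and 10.9 with vector and 1.2 and 7.2 with HSD17B14 in ZR75-1. In SKBR3-labelled cells it read 105.1 and 164 with vector and 202.2 and 260.7 with HSD17B14. Every ZR75-1 array was therefore under the floor and every SKBR3-labelled array far above it. The log2 difference was -5.77 ± 0.71 (limma adjusted p = 3.47e-05), and the signal was at least 9.86-fold lower in ZR75-1.

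DUSP8 (206374_at), a phosphatase of JNK and p38, showed the opposite order. It read 60 and 67.3 with vector and 60.8 and 60.4 with HSD17B14 in ZR75-1, against 13.6, 12.2, 8.4 and 17.2 on the SKBR3-labelled arrays, which were all under the floor. The signal was at least 3.53-fold higher in ZR75-1 (log2 2.32 ± 0.33, limma adjusted p = 1.16e-04). DUSP1 (201041_s_at), the immediate-early nuclear phosphatase of MAP kinases, ran from 116.4 to 145.1 on the ZR75-1 arrays and from 253.6 to 362.7 on the SKBR3-labelled arrays. Its difference was -1.14 ± 0.14, or 2.21-fold lower in ZR75-1 (limma adjusted p = 3.26e-05). These 3 genes passed in every one of the 20 alternatives run on the line difference.

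DUSP5 (209457_at), a nuclear phosphatase of ERK, read 82.4 and 90.3 with vector and 53.8 and 54.9 with HSD17B14 in ZR75-1. In SKBR3-labelled cells it read 132.7 and 77 with vector and 125.2 and 96.6 with HSD17B14, so the lines overlapped. It was 1.54-fold lower in ZR75-1 (log2 -0.62 ± 0.20, limma adjusted p = 0.0209), but -0.23 in the controls alone (limma adjusted p = 0.554). DUSP5 missed the threshold in 8 of 20 alternatives. Those without ZR75-1 HSD17B14 array 1, ZR75-1 vector array 1, SKBR3-labelled HSD17B14 array 1 or SKBR3-labelled vector array 1 were among them.

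DUSP10 (221563_at), a phosphatase of JNK and p38, read 27.2 and 1.1 with vector and 20.1 and 18.8 with HSD17B14 in ZR75-1, against 60.5, 36.6, 66.1 and 59.8 on the SKBR3-labelled arrays. One ZR75-1 vector array, at 1.1, stood far under the rest. The fitted difference was -2.40 ± 0.77 (limma adjusted p = 0.0220) and came to -1.40 with all values raised to the common floor. DUSP10 missed the threshold in 7 of 20 alternatives, with differences from -3.56 to -0.87 over the 20. Those 7 include the fits without either ZR75-1 HSD17B14 array, without SKBR3-labelled HSD17B14 array 1 and without SKBR3-labelled vector array 1. DUSP2 (204794_at), a nuclear phosphatase first known from lymphocytes, ran from 5.3 to 24.2 on the ZR75-1 arrays and from 1.5 to 2.5 on the SKBR3-labelled ones. No fold is given for DUSP2, since 2 of the 4 ZR75-1 arrays and all SKBR3-labelled arrays were under the floor. Its fitted difference of 2.72 ± 0.96 (limma adjusted p = 0.0348) fell to 0.19 on values raised to the floor. DUSP2 missed the threshold in 8 of the 17 alternatives that tested it. Those without SKBR3-labelled HSD17B14 array 1 or 2 and without SKBR3-labelled vector array 2 were among them.

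The other 2 MAP kinase phosphatases were not called. DUSP4 (204015_s_at), a nuclear phosphatase of ERK, ran from 200.4 to 363.7 on the ZR75-1 arrays and from 217.6 to 276.9 on the SKBR3-labelled ones. Its difference was 0.25, with a 95% interval from -0.06 to 0.55 (limma adjusted p = 0.164). DUSP9 (205777_at) lay above the floor on 1 array, at 22.5.

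**Figure D2:**
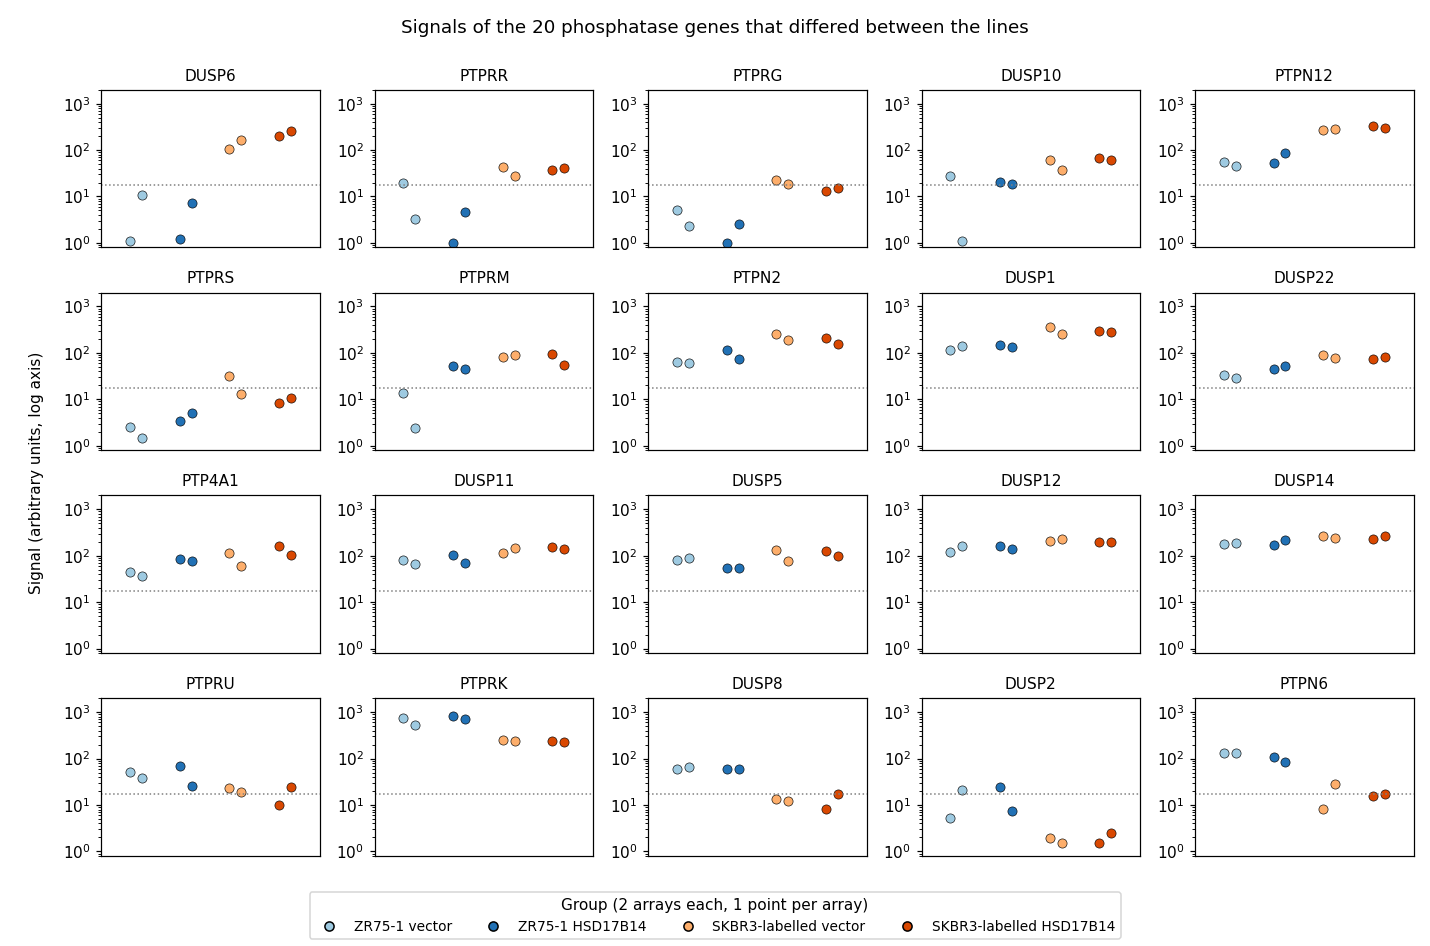
Signals on a log axis of the members that differed between the lines, 1 point per array, in the order ZR75-1 vector, ZR75-1 HSD17B14, SKBR3-labelled vector and SKBR3-labelled HSD17B14; the dotted line is the common floor of 17.6, and values below 1 are drawn at 1. DUSP6, PTPRG and PTPRS lie under the floor on all ZR75-1 arrays, and DUSP8 and DUSP2 on all SKBR3-labelled arrays.

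Of the 6 atypical DUSP members, 4 were called, all lower in ZR75-1, and 2 were not called. Over all probe sets 26.1% were called lower and 23% higher, and 6 members are too few to set apart from these shares. DUSP22 (218845_at), a small phosphatase that acts in JNK and T cell receptor signalling, read 33.1 and 28.7 with vector and 46.1 and 52 with HSD17B14 in ZR75-1. In SKBR3-labelled cells it read 90.2 and 78.5 with vector and 74.6 and 80.3 with HSD17B14. It was 2.08-fold lower in ZR75-1 (log2 -1.05 ± 0.19, limma adjusted p = 7.74e-04). It missed the threshold in 2 of 20 alternatives, 1 of them the HSD17B14 arrays alone (-0.66, limma adjusted p = 0.0896). DUSP11 (202703_at), a phosphatase of RNA 5' ends, ran from 67.8 to 104.4 on the ZR75-1 arrays and from 115.6 to 152.6 on the SKBR3-labelled ones (log2 -0.79 ± 0.17, limma adjusted p = 0.00210).

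DUSP12 (218576_s_at), which carries a zinc-binding domain, ran from 122.8 to 163.5 on the ZR75-1 arrays and from 194.2 to 234.1 on the SKBR3-labelled ones, a difference of -0.53 ± 0.13 (limma adjusted p = 0.00584). It missed the threshold on the HSD17B14 arrays alone (limma adjusted p = 0.120) and with the actin covariate (0.0814). DUSP14 (203367_at) ran from 169.1 to 216.2 and from 224.3 to 262.4, a difference of -0.40 ± 0.12 (limma adjusted p = 0.0159). The arrays of the lines did not overlap for any of these 4 genes. DUSP14 missed the threshold in 5 of its 20 alternatives, among them those without ZR75-1 HSD17B14 array 1 and without SKBR3-labelled HSD17B14 array 2. Its differences over the 20 ran from -0.49 to -0.29. DUSP3 (201536_at), also called VHR, ran from 38.4 to 77.9 on the ZR75-1 arrays and from 47.5 to 53.7 on the SKBR3-labelled ones and was not called. DUSP13B (219963_at) lay above the floor on 1 array, at 22.6.

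Among the 13 tested non-receptor probe sets, 1 was higher and 2 were lower in ZR75-1, beside 23% and 26.1% of all probe sets. PTPN12 (202006_at), also known as PTP-PEST, a phosphatase of focal adhesion proteins, read 54.4 and 45.8 with vector and 53.2 and 84.8 with HSD17B14 in ZR75-1. On the SKBR3-labelled arrays it read 265.9 and 278.8 with vector and 327.9 and 297.7 with HSD17B14. The lines were far apart, and the signal was 5.04-fold lower in ZR75-1 (log2 -2.33 ± 0.16, limma adjusted p = 3.44e-07).

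PTPN2 (213136_at), the T-cell phosphatase that acts on JAK and STAT proteins, ran from 61.8 to 114.2 on the ZR75-1 arrays and from 157.7 to 259.7 on the SKBR3-labelled ones. It was 2.63-fold lower in ZR75-1 (log2 -1.40 ± 0.18, limma adjusted p = 5.47e-05). PTPN6 (206687_s_at), or SHP-1, which is best known from blood cells and also present in epithelia, read 129.2 and 134.3 with vector and 109.4 and 82.7 with HSD17B14 in ZR75-1. Its SKBR3-labelled signals were 8.4 and 28.4 with vector and 15.3 and 17 with HSD17B14, with 3 of the 4 under the floor. The difference was 2.83 ± 0.35 (limma adjusted p = 3.53e-05) and came to 2.50 on values raised to the floor. These 3 genes passed in all 20 alternatives.

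Beside PTPN6, the leukocyte markers had summed signals of 124 to 173.7 on the ZR75-1 arrays and 178.6 to 218.2 on the SKBR3-labelled arrays. The gap came from LAPTM5, a lysosomal membrane protein of blood cells (1.2 to 22.6 against 67.2 to 97.3), and without it the sums were 113.1 to 151.1 and 111.4 to 120.9. PTPRC, which encodes the leukocyte phosphatase CD45, lay under the floor on all 8 arrays, with a highest signal of 16.2. The remaining 10 non-receptor probe sets were not called. PTPN1 (202716_at), or PTP1B, which acts on the insulin receptor, had a difference of -0.15 with a 95% interval from -0.54 to 0.24 (limma adjusted p = 0.526). PTPN11 (205868_s_at), or SHP-2, lay above the floor on 1 array, at 26.7.

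Of the 10 tested receptor-type members, 2 were higher and 4 lower in ZR75-1, beside 23% and 26.1% of all probe sets. PTPRK (203038_at), a receptor phosphatase that binds its own kind on neighbouring cells, read 742.1 and 517.6 with vector and 809.3 and 701.9 with HSD17B14 in ZR75-1. On the SKBR3-labelled arrays it read 248.8 and 238.6 with vector and 244.6 and 227.8 with HSD17B14. Every ZR75-1 array was above every SKBR3-labelled array, and the signal was 2.85-fold higher (log2 1.51 ± 0.12, limma adjusted p = 1.27e-06). PTPRK passed in all 20 alternatives.

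PTPRU (211320_s_at), of the same subfamily as PTPRK and PTPRM, read 50.3 and 38.4 with vector and 69.8 and 26.3 with HSD17B14 in ZR75-1, against 22.7, 19.4, 10.2 and 24.4 in SKBR3-labelled cells. The lines did not overlap, and the difference was 1.25 ± 0.41 (limma adjusted p = 0.0244). It missed the threshold in 7 of 20 alternatives, with differences from 0.59 to 2.14 over the 20. Those without ZR75-1 HSD17B14 array 1, ZR75-1 vector array 1, SKBR3-labelled HSD17B14 array 1 or SKBR3-labelled vector array 2 were among them.

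PTPRM (203329_at), which also pairs with itself across cell contacts, read 13.4 and 2.4 with vector and 52.1 and 44.1 with HSD17B14 in ZR75-1, and 82.9, 90.9, 95 and 55.2 in SKBR3-labelled cells. The averaged difference was -2.27 ± 0.46 (limma adjusted p = 0.00150). It was -3.94 between the vector arrays and -0.60 between the HSD17B14 arrays (limma adjusted p = 0.533). Both ZR75-1 vector arrays lay under the floor, so the sizes of -2.27 and -3.94 rest on values that the floor bounds. PTPRR (210675_s_at), a phosphatase of ERK and p38, read 19.7 and 3.2 with vector and 0.6 and 4.7 with HSD17B14 in ZR75-1 and ran from 27.4 to 43.8 in SKBR3-labelled cells. Its difference was -3.15 ± 0.71 (limma adjusted p = 0.00313) and -1.02 on values raised to the floor. It missed the threshold on the vector arrays alone (-2.13, limma adjusted p = 0.118) and with the actin covariate (0.0863).

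PTPRG (204944_at) and PTPRS (210823_s_at) were called with low signals throughout. Both entered the test only through SKBR3-labelled arrays, the line where they read higher. PTPRG, a receptor phosphatase with a carbonic anhydrase-like outer domain, ran from 0.7 to 5.2 on the ZR75-1 arrays and from 13.4 to 23.2 on the SKBR3-labelled ones. Its fitted difference of -2.88 ± 0.77 (limma adjusted p = 0.00884) came to -0.12 on values raised to the floor. PTPRS, a receptor for proteoglycans, ran from 1.5 to 5.2 and from 8.2 to 31.8, with -2.28 ± 0.77 (limma adjusted p = 0.0280) and -0.21 at the floor. No fold is given for either, and neither passed without SKBR3-labelled HSD17B14 array 1 or array 2. PTPRG missed the threshold in 5 of the 19 alternatives that tested it. PTPRS missed it in 6 of 17, among them the fit without ZR75-1 HSD17B14 array 1. PTPRF (200636_s_at), or LAR, ran from 79.7 to 210.6 on the ZR75-1 arrays and from 109.6 to 163 on the SKBR3-labelled ones and was not called, with an interval from -0.66 to 0.33.

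The PTP4A family, small farnesylated phosphatases also called PRL, had 1 called member. PTP4A1 (200733_s_at) read 43.8 and 36.8 with vector and 84.7 and 77.6 with HSD17B14 in ZR75-1, and 112.2, 59.9, 159.3 and 103.2 in SKBR3-labelled cells. The lines overlapped, with a difference of -0.85 ± 0.23 (limma adjusted p = 0.00932). The call was lost in 3 of 20 alternatives, 1 of them without SKBR3-labelled HSD17B14 array 1. Differences over the 20 ran from -1.07 to -0.59. PTP4A2 (208616_s_at) ran from 858.5 to 1216.8 on the ZR75-1 arrays and from 963.1 to 1049.8 on the SKBR3-labelled ones. Its line difference was 0.09, with an interval from -0.13 to 0.32. PTP4A3 (209695_at) lay above the floor on 4 of 8 arrays and was not called (0.88, limma adjusted p = 0.182).

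The second comparison asked what the HSD17B14 plasmid changed within each line. In ZR75-1, 1 of the 40 members passed, against 1.52% of all probe sets (0.736% higher and 0.784% lower). With each array centred on its median the calls over all probe sets were 18 higher and 5 lower in place of 46 and 49, and the median effect over all probe sets moved from -0.04 to 0.16. The called member was PTPRM, whose vector arrays (13.4 and 2.4) were both under the floor and whose HSD17B14 arrays (52.1 and 44.1) were both above it. It rose by 3.08 ± 0.65 on the log2 scale (limma adjusted p = 0.0446), at least 2.72-fold. On values raised to the floor the change was 1.45 (limma adjusted p = 0.0788).

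The call for PTPRM held in 5 of 19 alternatives, with log2 changes from 1.02 to 4.32, all of them upward, and adjusted p-values from 0.00199 to 0.448. It was lost on leaving out any array but ZR75-1 vector array 1. Without that array the vector side in ZR75-1 rested on 1 array, at 2.4 and under the floor. The limma adjusted p was 0.183 and 0.111 without ZR75-1 HSD17B14 array 1 and 2, and 0.0600 without ZR75-1 vector array 2, where the change was 1.84. It was 0.0878 and 0.0804 without SKBR3-labelled HSD17B14 array 1 and 2, and 0.0605 and 0.0583 without SKBR3-labelled vector array 1 and 2. Actin had 3'/5' ratios of 2.83 and 2.66 with HSD17B14 and of 2.03 and 2.02 with vector in ZR75-1, while those of GAPDH went the other way (0.896 and 0.883 against 1.08 and 1.04). With the actin ratio in the fit the adjusted p was 0.448 and the change 3.62.

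**Figure D3:**
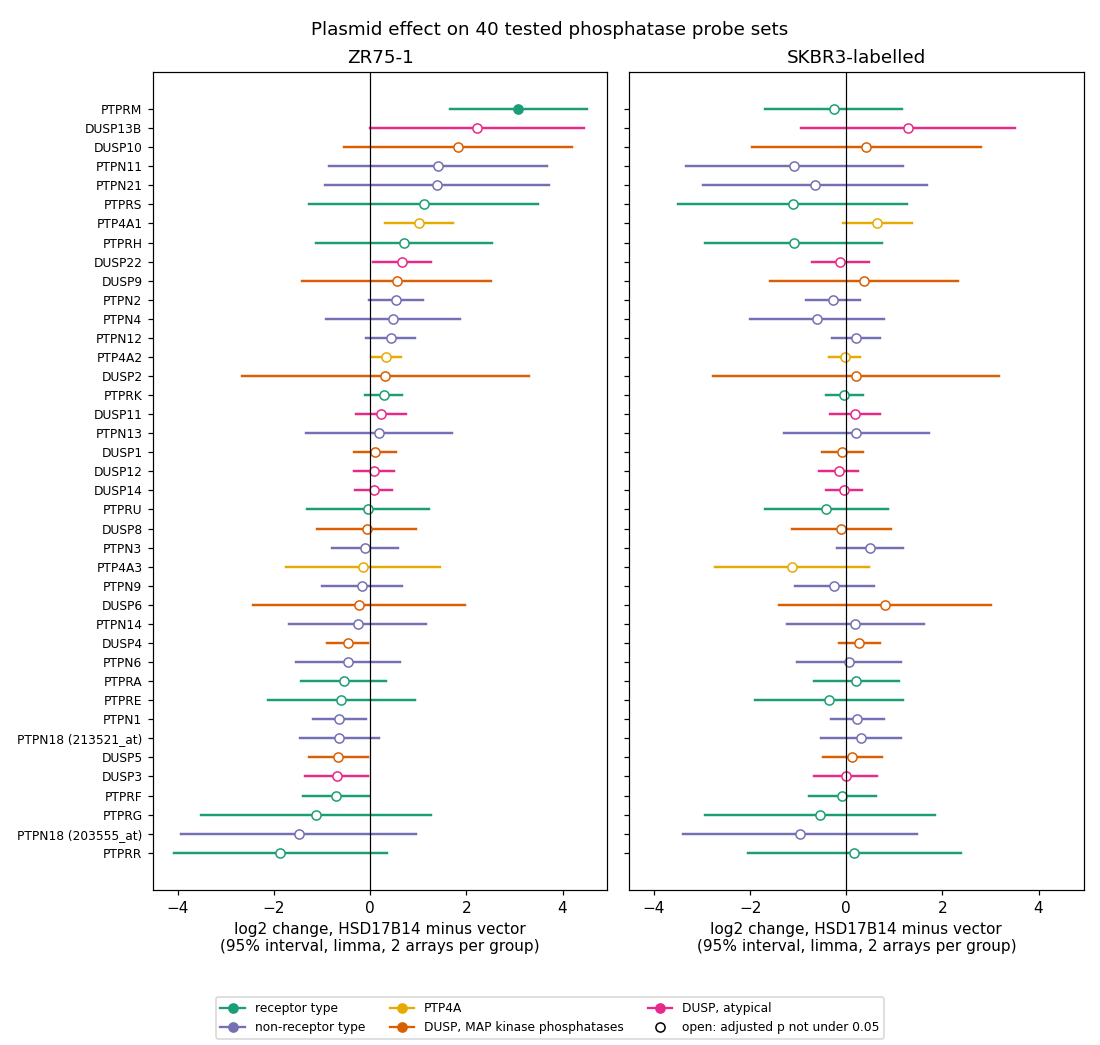
Log2 change with the HSD17B14 plasmid for the 40 tested members in each line, 2 arrays a group; points are limma estimates and bars 95% intervals not adjusted for the number of members. PTPRM in ZR75-1, at 3.08, is the 1 change that passed an adjusted p of 0.05, and the intervals in SKBR3-labelled cells all span 0.

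In ZR75-1, 9 of 40 members had an unadjusted p under 0.05, 4 higher and 5 lower, against 18% of all probe sets (8.35% higher and 9.61% lower). PTP4A1 read 84.7 and 77.6 with HSD17B14 against 43.8 and 36.8, a log2 difference of 1.01 ± 0.32 (limma adjusted p = 0.126). DUSP22 read 46.1 and 52 against 33.1 and 28.7 (0.67, limma adjusted p = 0.229). PTPN1 read 44.9 and 57.6 against 76.4 and 82.4 (-0.64, limma adjusted p = 0.207). In each of these 3 genes the HSD17B14 and vector arrays did not overlap, and none passed the adjusted threshold. The other 5 were PTP4A2 (0.33) and PTPRF, DUSP3, DUSP5 and DUSP4 (-0.71 to -0.46), with limma adjusted p-values from 0.236 to 0.267. Groups that did not overlap were seen for 9 members with higher and 7 with lower signals, beside 20.7% and 26.3% of all probe sets.

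In SKBR3-labelled cells 0 of 40 members passed the limma test, and 0 had an unadjusted p under 0.05. The shares over all probe sets were 0.992% and 8.78%. PTPRM read 95 and 55.2 with HSD17B14 against 82.9 and 90.9 (-0.26 ± 0.65, limma adjusted p = 0.984). PTP4A1 read 159.3 and 103.2 against 112.2 and 59.9, a difference of 0.65 (limma adjusted p = 0.614) with overlapping arrays. PTPN3 (203997_at), a phosphatase with a FERM domain, read 64.5 and 53.5 against 48.1 and 36, or 0.50 (limma adjusted p = 0.751).

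PTP4A3 read 5.7 and 14.2 against 19.9 and 19.7, or -1.14 (limma adjusted p = 0.760), and DUSP4 read 262.6 and 276.9 against 217.6 and 230.9, or 0.27 (limma adjusted p = 0.823). DUSP6 read 202.2 and 260.7 against 105.1 and 164. These DUSP6 arrays did not overlap, and the signal was 1.75-fold higher with HSD17B14. The fitted difference was 0.81 ± 1.01 (limma adjusted p = 0.936). That error is shared by all 4 groups, which include the ZR75-1 arrays under the floor, so it is not the spread of the SKBR3-labelled arrays alone. In a fit on the 4 SKBR3-labelled arrays alone no member was called either, so a rise of DUSP6 was not shown. Non-overlapping groups were seen for 5 members with higher and 6 with lower signals, beside 19.5% and 20.6% of all probe sets.

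**Figure D4:**
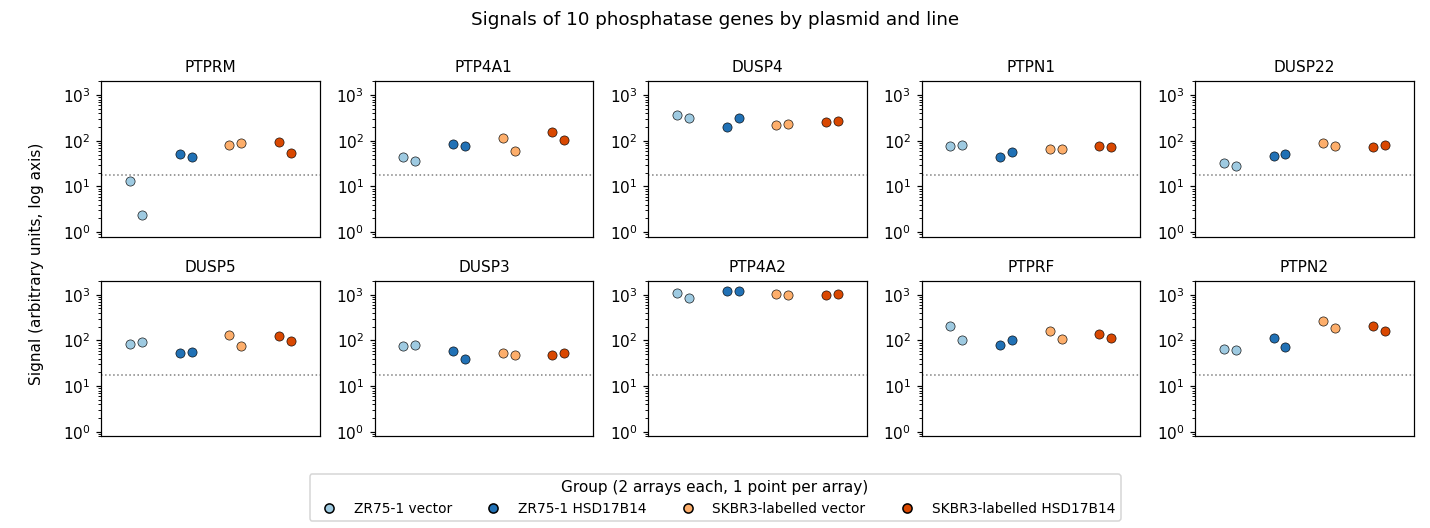
Signals on a log axis of 10 members with an unadjusted p under 0.05 for the plasmid effect in ZR75-1 or for its difference between the lines, 1 point per array and 2 arrays a group; the dotted line is the common floor of 17.6. PTPRM lies under the floor on both ZR75-1 vector arrays and above it on the other 6 arrays.

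Averaged over both lines, 0 of 40 members passed the limma test against 1.5% of all probe sets, and 3 had an unadjusted p under 0.05, all higher (14.2% of all probe sets in either direction and 6.83% higher). PTP4A1 had an averaged change of 0.83 ± 0.23 (limma adjusted p = 0.120). It passed when arrays were blocked by spike-in level (0.97, limma adjusted p = 0.0401). Apart from fits that left out an array, no other alternative called a member in this comparison. PTPRM averaged 1.41 (limma adjusted p = 0.183), with both ZR75-1 vector arrays under the floor. Without ZR75-1 vector array 1 the average was 2.03, and the ZR75-1 vector side then rested on 1 array, at 2.4 and under the floor. DUSP13B, which read 11.1 and 16.2 with HSD17B14 against 2.2 and 3.8 in ZR75-1, averaged 1.75 (limma adjusted p = 0.287) with all ZR75-1 arrays under the floor. PTPN12 averaged 0.31 (limma adjusted p = 0.413).

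The plasmid's effect in ZR75-1 was then set against that in SKBR3-labelled cells as an interaction. Of the 40 members 0 passed, beside 0.624% of all probe sets, and 4 had an unadjusted p under 0.05 against 13%. For PTPRM the effects differed by 3.34 ± 0.92 (unadjusted p from limma 0.00372, adjusted p = 0.153), so a difference between the lines was not shown at the threshold. Both ZR75-1 vector arrays lay under the floor, so that size rests on values that the floor bounds. Without ZR75-1 vector array 1 the effects differed by 4.58, where the ZR75-1 vector side rested on 1 array, at 2.4 and under the floor. The remaining 3 were DUSP4 (-0.73, limma adjusted p = 0.305), PTPN1 (-0.87, limma adjusted p = 0.334) and PTPN2 (0.81, limma adjusted p = 0.378).

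Genes around the phosphatases were read from 5 lists. Of their 77 tested genes 41 were called between the lines (53.2%). Over all probe sets 49.2% were called, 23% higher and 26.1% lower in ZR75-1, so the share over the lists is near the background. Of 19 tested MAP kinases, which the MAP kinase phosphatases act on, and kinases upstream of them, 4 were higher and 3 lower in ZR75-1, with a median of -0.00. MAPK9 (JNK2) was higher by 0.94 and MAPK6 (ERK3) was at -0.66. MAPK11 (p38β), with 2 SKBR3-labelled arrays under the floor, was at 1.88, or 1.26 with signals raised to it. MAPK12 (p38γ), with 3 ZR75-1 arrays under it, was at -1.41, or -1.02 when raised. Of 14 ERK response genes, 1 was higher and 9 lower, with a median log2 difference of -2.56 beside -0.04 for all probe sets. FOSL1, a Fos-related transcription factor, read 18.4 to 39.3 in ZR75-1 and 266.4 to 330.1 in SKBR3-labelled cells, a difference of -3.59. EGR1 (-2.26) and EPHA2 (-2.86) were lower as well. PHLDA1 lay under the floor on all ZR75-1 arrays and was at least 41.2-fold lower. CCND1, the cyclin D1 gene, was the 1 that was higher (0.59). With signals raised to the floor the list's median was -1.23, beside 0.00 for all probe sets, since several of its genes lay under the floor in ZR75-1. DUSP6 had low signals in the same line as these genes, and a link between them was not tested.

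Of 16 other members of the tyrosine phosphatase superfamily, 3 were higher and 6 lower in ZR75-1 (median -0.31, and -0.23 with signals raised to the floor). INPP4B, a lipid phosphatase, was at -1.60, MTMR2 at -1.71 and CDC25C, which activates the mitotic kinase CDK1, at -1.13, while MTMR4 was at 1.42. Of 19 cytosolic tyrosine kinases and STATs, which are among the substrates of the non-receptor enzymes, 4 were higher and 5 lower (median -0.14). STAT6 was at 0.77. FYN, a Src-family kinase with 3 ZR75-1 arrays under the floor, was at -2.68, or -2.14 with signals raised to it, and ABL2 was at -1.58, or -1.43 when raised. STAT4 lay under the floor on all ZR75-1 arrays and was at least 1.57-fold lower. Of 9 partners and ligands of receptor phosphatases, 3 were higher and 3 lower (median -0.28, and 0.01 with signals raised to the floor). E-cadherin (CDH1, 4.82), plakoglobin (JUP, 2.28) and liprin α1 (PPFIA1, 2.20) were higher. Tenascin C (TNC), under the floor on all ZR75-1 arrays, was at least 1.76-fold lower.

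No gene of the 5 lists passed for the plasmid in ZR75-1, in SKBR3-labelled cells or for the difference between them with limma. Of the 77 genes tested, the unadjusted p was under 0.05 for 11 in ZR75-1 (14.3%, beside 18% of all probe sets), 7 in SKBR3-labelled cells (9.1%, beside 8.78%) and 10 for the difference (13%, as for all probe sets). These shares are near or below the background. In the average over lines 1 of 77 passed (1.3%, beside 1.5%), CTNNB1, the gene of β-catenin. It read 101.4 and 140.3 with HSD17B14 against 62.2 and 72.8 in ZR75-1, and 177.4 and 144.2 against 104.7 and 100.7 in SKBR3-labelled cells. It rose by 0.73 ± 0.16 (limma adjusted p = 0.0477), just under the threshold. The arrays did not overlap in either line, as for 20.7% of all probe sets that were higher in ZR75-1 and 19.5% in SKBR3-labelled cells. CTNNB1 was named after its values were seen, and no alternatives are given for it.

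The 11 members that were not tested were PTPRB, PTPRC, PTPRCAP, PTPRD, PTPRN, PTPRN2, PTPRO, PTPRZ1, PTPN7, PTPN22 and 1 probe set of PTPN21. They include genes known from blood cells (PTPRC, PTPN7 and PTPN22), endothelium (PTPRB) and neurons or endocrine cells (PTPRN, PTPRN2 and PTPRZ1). Their signals ran from 0.6 to 20.6, and 3 of them exceeded the floor on 1 array each, SKBR3-labelled vector array 1. That array also had the highest 40th percentile, and 38 of the 51 members exceeded the floor on it, against 25 to 31 on the other arrays. Of all 51 members, 19 lay above the floor on all 8 arrays, 24 on some and 8 on none. PTPN18 had 2 tested probe sets, which read differently. The first (213521_at) ran from 38.4 to 106.8 and lay above the floor on all 8 arrays. The second (203555_at) ran from 3.9 to 50.7 and exceeded it on 3. Neither was called in any comparison. Probe sets whose names end in _s_at can bind more than 1 transcript.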

How the data were processed

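The values were the linear signal intensities that the authors deposited for each probe set. Per the submitters' processing notes, MAS5 produced them. The version was not given in the sources used here. Genes were named from the platform annotation; of 8746 probe sets other than 47 controls, 7840 had 1 symbol, 388 several and 518 none.

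Signals were put on a log2 scale after setting those below 1 (2.41% to 7.13% per array) to 1. The 4 group means were fitted with limma 3.58.1 (R 4.3.3) over all 6251 tested probe sets (5552 genes) with eBayes and a mean-dependent prior, with Benjamini-Hochberg adjustment over all of them. Precision is limited by the 2 arrays a group, and 95% intervals are not adjusted. A fold is a lower bound where all arrays of 1 side lay under 17.6. The model was tested on simulated data. Plots used Python 3.11.15 and matplotlib 3.10.9.

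Members given array by array were those past the threshold in any of 5 comparisons, the 4 with the smallest p where fewer passed, the 8 with the highest mean log2 signal and genes with several tested probe sets. From each gene list up to 4 genes with the largest moderated statistic were named. CTNNB1, CCND1, LAPTM5, LCP1, CD53 and COL1A1 were named after their values were seen. The members and lists were chosen with earlier results of these data known. Alternatives covered scaling, filter, floor, pseudocount, prior, blocks, a covariate and leaving out each array.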

Additional observations from a re-analysis of the deposited data

How the results depend on the processing

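In the alternatives run, of 686 recomputed values 613 kept their side of the threshold, 70 lost it, 3 gained it and 0 reversed. The count of 1 called member for the plasmid in ZR75-1 became 0 with median centring, no filter, values raised to the common floor, a prior free of the mean, a block for spike-in level, the actin covariate (its 3'/5' ratio) or the 4 arrays of the line alone, and ran from 0 to 2 on leaving out each array. The count averaged over lines was 0, became 1 with the spike-in block and ran from 0 to 2 on leaving out each array, and that for the difference of effects ran from 0 to 1. The highest of these 3 ranges each came without ZR75-1 vector array 1, which leaves 1 vector array in that line. The count of 20 for the line difference became 10 with the actin covariate (beside 28.0% of all probe sets) and 11 on the HSD17B14 arrays alone (33.2%), and ran from 13 to 19 on leaving out each array (40.6% to 49.0%). The cause was not tested. In SKBR3-labelled cells the count was 0 throughout. Deviations of the replicates did not correlate between plasmid and vector (-0.04 in each line), which cannot show whether arrays shared a run. On array 2 of ZR75-1 HSD17B14, SKBR3-labelled HSD17B14 and SKBR3-labelled vector, the mean log2 spike-in level was 7.23, 6.61 and 6.67. It was 4.01 to 5.31 on the other arrays. With the replicate block the counts of called members were 1, 0, 0, 0 and 20, as without it, and over all probe sets in ZR75-1 104 in place of 95. Signals under 17.6 limit PTPRG, PTPRS, DUSP2, DUSP10, PTPRR and PTPRM.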
